A study of Mus musculus with 48 samples.

Results

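The 38 genes described here encode the core machinery of autophagy, the receptors that carry cargo and mitochondria to it, and TFEB and TFE3, transcription factors that switch on autophagy and lysosome genes. They were taken by gene name from the deposited count and FPKM tables of a circadian RNA sequencing study of mouse muscle. All 38 were found, among 56748 genes in the FPKM table, and all 38 were among the 15637 genes with enough counts to be tested. The tumor effect, the genotype effect, and the rhythm of each gene were measured in tibialis anterior, a fast muscle of the lower leg.

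The muscles came from 48 male mice, 39 to 55 weeks old, with 2 mice in each of 24 groups. WT mice and FoxP1SkmKO mice (Foxp1fl/fl; Acta1-cre, in which Cre under the ACTA1 promoter deletes Foxp1 in skeletal muscle fibers and not in other cells of the muscle) were compared. The genotype label of the WT mice reads C57BL/6J, but FoxP1fl/fl mice without Cre are described in the series text, and which holds is not settled here. Mice of both genotypes received KPC cells, a murine pancreatic cancer line, in the pancreas (KPC), or sterile PBS there and no tumor (control). Muscles were collected in constant darkness every 4 h from circadian time (CT) 18 to CT38. CT18 and CT22 fall in the active phase of these nocturnal animals and CT26 shortly after it.

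In autophagy, a membrane cup called the phagophore grows around cytoplasm, closes into an autophagosome, and fuses with a lysosome, where the contents are degraded. The ULK1 kinase complex starts the process, a class III phosphatidylinositol 3-kinase complex marks the membrane, ATG9A and the ATG2 lipid transfer proteins feed it, and the ATG12 and ATG8 conjugation systems attach LC3 and GABARAP proteins that recruit cargo. In skeletal muscle, autophagy removes damaged organelles, and its genes are known as targets of FoxO factors in wasting muscle. Transcript levels do not measure autophagic flux.

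Library depth was 14480867 to 20787784 counts (median, 16602092). Markers of muscle fibers summed to 40934 to 58649 FPKM (fragments per kilobase of gene length, scaled to library depth) in every library, with 8 of 8 genes present, and markers of pancreas and tumor epithelium to at most 0.903 FPKM. Foxp1 itself ranged from 0.430 to 0.971 FPKM over WT control mice and from 0.430 to 0.642 FPKM over FoxP1SkmKO control mice, so the groups overlapped. Counted over the whole gene, Foxp1 did not separate the genotypes by edgeR's quasi-likelihood test (log2 fold change −0.11, adjusted p = 0.459 in control mice and −0.20, adjusted p = 0.246 in KPC mice). In bulk muscle, fewer cells of a type and less RNA per cell cannot be told apart.

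Levels of the 38 genes spanned a wide range on the FPKM scale, which corrects for gene length. Sqstm1, which encodes the p62 receptor for ubiquitinated cargo, was the highest at 146 ± 13.7 FPKM (SD over 48 mice), followed by Map1lc3a, an LC3 gene, at 143 ± 15.7 FPKM. Gabarap (41.6 FPKM), the mitophagy receptor Bnip3 (36.4 FPKM), and the kinase gene Ulk2 (28.3 FPKM) came next. The lowest were Tfe3 (1.25 ± 0.137 FPKM), Pik3r4 (1.56 FPKM), which encodes the regulatory subunit of the lipid kinase complex, and Atg7 (1.76 FPKM), which encodes the enzyme that activates ATG12 and the ATG8 proteins. Among the genes in between were Ambra1 (5.11 FPKM), Rb1cc1 (4.38 FPKM), Pik3c3 (4.17 FPKM), and the lipid transfer gene Atg2b (2.21 FPKM).

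Within the ULK1 complex, Ulk2 was higher than Ulk1 in each of the 4 genotype and tumor groups (27.1 ± 2.32 against 18.0 ± 1.34 FPKM in WT control mice, SD, n = 12). Among ATG8 genes, Map1lc3a was at 140 ± 15.3 FPKM and Map1lc3b at 20.5 ± 1.51 FPKM in WT control mice. The 5 ATG8 genes together summed to 237 ± 23.0 FPKM (SD, n = 12) in the WT control, 244 ± 16.4 in the WT KPC, 230 ± 18.5 in the FoxP1SkmKO control, and 251 ± 16.7 in the FoxP1SkmKO KPC group. The 10 conjugation genes summed to 45.04 ± 2.13, 43.4 ± 1.90, 42.6 ± 1.37, and 42.4 ± 1.97 FPKM in the same order. The ranges of these sums overlapped among the 4 groups.

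Promoter sequences were read for 31 of the 38 genes from RefSeq (GRCm38.p6, not the mm39 build of the count tables), from 250 bases before to 50 bases after the start of each gene. They were searched on both strands for CACGTG, the E-box to which clock activators and TFEB can bind, because the study followed clock control. The E-box was in 5 of 31 member promoters (16.1%), compared to 8.09% of 27025 gene promoters. The longer CLEAR motif of TFEB, which contains the E-box, and the forkhead motif GTAAACA were in 0 of 31 member promoters, compared to 0.370% and 4.05% of all promoters. A match is a run of letters and not a measured binding site. The matches are shown in 30 bases of the gene's strand, with the E-box in capitals, because they are the member promoters that hold it.
Atg14 (chr14:47568418-47568447, minus strand): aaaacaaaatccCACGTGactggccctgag
Atg3 (chr16:45158723-45158752, plus strand): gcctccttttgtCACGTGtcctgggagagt
Atg3, the next match (chr16:45158746-45158775, plus strand): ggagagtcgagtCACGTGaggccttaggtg
Atg5 (chr10:44268313-44268342, plus strand): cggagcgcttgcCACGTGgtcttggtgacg
Atg7 (chr6:114670952-114670981, plus strand): catattggtggtCACGTGtgcagtaagtga
Bnip3 (chr7:138909597-138909626, minus strand): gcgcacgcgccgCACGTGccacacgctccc

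To determine whether the tumor changed autophagy genes across the day, the KPC and control mice were first compared over the mean of the 6 circadian times. In WT mice, 0 of 38 genes passed an adjusted p of 0.05 by edgeR, compared to 1.79% of all tested genes, and 7 had an unadjusted p under 0.05 (15.2% of all tested genes did). The median log2 fold change of the 38 was 0.034, compared to 0.0016 for all tested genes, and 27 were above 0. In FoxP1SkmKO mice, 0 of 38 genes passed, compared to 0.428% of all tested genes, with 10 at an unadjusted p under 0.05 (12.4% of all), a median of 0.043 (all genes, 0.0048), and 30 above 0.

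The members nearest to the threshold in WT mice were Atg2b, Ambra1, and Atg9a. Atg2b, a lipid transfer gene, ranged from 1.47 to 2.36 FPKM (median, 2.17) in WT control mice and from 2.00 to 2.46 FPKM (median, 2.24) in WT KPC mice, with a log2 fold change of 0.13 (SE 0.038, adjusted p = 0.0628 by edgeR). Ambra1, which encodes a scaffold of the class III lipid kinase complex, ranged from 3.81 to 5.21 FPKM (median, 4.90) in control mice and from 4.46 to 5.89 FPKM (median, 5.22) in KPC mice (0.14, SE 0.042, adjusted p = 0.0721). Atg9a, which encodes the scramblase of the vesicles that seed the phagophore, had a difference of 0.16 (SE 0.047, adjusted p = 0.0776). The control and KPC ranges overlapped for each of these genes, and the control minimum of Atg2b, Ambra1, and Atg9a was in each case a CT26 mouse.

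The other members with an unadjusted p under 0.05 in WT mice were Ulk1 (log2 fold change 0.17, adjusted p = 0.197), Ulk2 (0.09, adjusted p = 0.176), Atg12 (−0.12, adjusted p = 0.161), and the ATG8 protease gene Atg4a (−0.14, adjusted p = 0.298). Leaving out single libraries brought Ambra1, Atg9a, and Atg2b past the threshold without WT KPC CT30 replicate 2, Ambra1 without WT control CT18 replicate 1 or WT KPC CT38 replicate 1, and Atg9a without WT control CT26 replicate 2. In FoxP1SkmKO mice, the lowest adjusted p was that of Map1lc3a, at 113 to 163 FPKM (median, 136) in control mice and 130 to 184 FPKM (median, 149) in KPC mice (log2 fold change 0.15, SE 0.045, adjusted p = 0.123 by edgeR). Ulk1 (0.19), Rb1cc1 (0.11), Atg2a (0.09), Atg2b (0.08), Gabarap (0.09), Gabarapl1 (0.15), Map1lc3b (0.09), Sqstm1 (0.11), and Tfeb (0.10) also had an unadjusted p under 0.05 there, with adjusted p values of 0.190 to 0.367. Bnip3 had a tumor effect of 0.09 in WT mice (adjusted p = 0.391) and 0.05 in FoxP1SkmKO mice (adjusted p = 0.758).

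The tumor effect averaged over the day did not differ between WT and FoxP1SkmKO mice for any of the 38 genes at an adjusted p of 0.05 in edgeR, compared to 0.0% of all tested genes. At an unadjusted p under 0.05 were 2 members (6.52% of all tested genes), Ambra1 (difference 0.15, SE 0.059) and Atg12 (−0.14, SE 0.061), both with an adjusted p of 0.764.

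**Figure D1:**
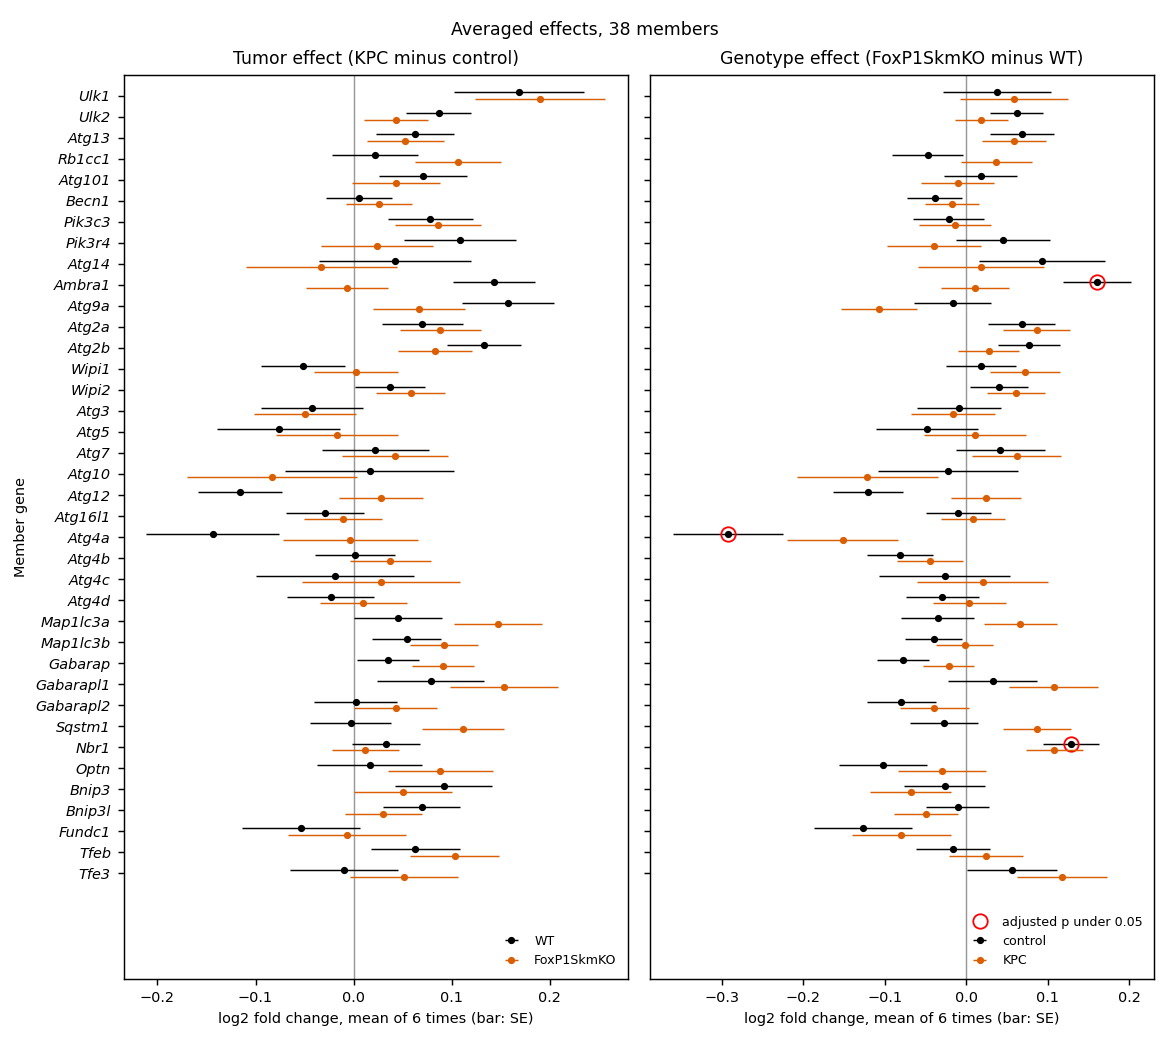
Log2 fold changes averaged over the 6 circadian times for the 38 genes, with bars for the SE: tumor effects in WT and FoxP1SkmKO mice in one panel and genotype effects (FoxP1SkmKO minus WT) in control and KPC mice in the other. Red rings mark an adjusted p under 0.05, which 3 genes (Ambra1, Atg4a, Nbr1) reached in the genotype effect of control mice and 0 genes in either tumor effect.

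The genotypes were then compared within each tumor status. In control mice, 3 of 38 genes passed the test, compared to 3.44% of all tested genes, and 7 had an unadjusted p under 0.05 (17.2% of all). Atg4a (chrX:139857656-139947266 in mm39), whose product cleaves ATG8 proteins, was lower in FoxP1SkmKO control mice, at 5.76 to 9.28 FPKM (median, 6.86) compared to 6.83 to 9.99 FPKM (median, 8.71) in WT control mice (log2 fold change −0.29, SE 0.068, adjusted p = 0.0105 by edgeR). The ranges of the genotypes overlapped. Ambra1 (chr2:91560479-91749194) was higher in FoxP1SkmKO control mice, at 4.60 to 5.97 FPKM (median, 5.33), compared to 3.81 to 5.21 FPKM in WT control mice (0.16, SE 0.042, adjusted p = 0.0245).

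Nbr1 (chr11:101442975-101472777), a receptor for ubiquitinated cargo, was also higher, at 11.6 to 14.4 FPKM (median, 13.3) in FoxP1SkmKO control mice compared to 9.24 to 13.5 FPKM (median, 12.3) in WT control mice (0.13, SE 0.035, adjusted p = 0.0300 by edgeR). Of 24 fits that each left out a library, Atg4a passed in 24, Ambra1 in 20, and Nbr1 in 14, and only 1 of the 3 passed without WT control CT26 replicate 1, WT control CT34 replicate 1, or WT control CT38 replicate 1. With CT26 left out of the average, the genotype effect of Ambra1 was 0.08 and that of Nbr1 0.10, and neither passed. Atg4a did not pass with CT34 (−0.25) or CT38 (−0.24) left out of the average. In KPC mice, 0 of 38 genes passed, compared to 0.32% of all tested genes (6 at an unadjusted p under 0.05, 10.8% of all), and the log2 fold changes by edgeR were 0.01 for Ambra1 (adjusted p = 0.959), −0.15 for Atg4a (adjusted p = 0.413), and 0.11 for Nbr1 (adjusted p = 0.187).

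To resolve the time of day, KPC and control mice were compared at each circadian time. At CT26 in WT mice, 5 of 38 genes passed the edgeR test, 4 higher in KPC mice (4.64% of all tested genes were called higher) and 1 lower (2.53% were called lower). The higher genes were Ulk2 of the ULK1 complex, Ambra1 of the class III lipid kinase complex, and Atg9a and Atg2b of the lipid transfer group, and the lower gene was Gabarap of the ATG8 family. At the 11 other combinations of genotype and time, 0 members passed, compared to 0.00872% of all tests there, which held 15 called genes in all. At an unadjusted p under 0.05, 6 members stood at CT34 in WT mice (6.06% of all tested genes) and 6 at CT18 in FoxP1SkmKO mice (13.8% of all). At the remaining 9 combinations the count was 0 to 5, compared to 4.05% to 9.82% of all tested genes.

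Atg2b (chr12:105582395-105651470), which encodes a lipid transfer protein that expands the phagophore, was at 1.47 and 1.49 FPKM in the WT control mice of CT26 and at 2.43 and 2.23 FPKM in the WT KPC mice. It rose by a log2 fold change of 0.65 (SE 0.095, adjusted p = 4.14e-05 by edgeR). Both control mice were below each of the other 46 mice of the study, which were at 1.99 FPKM or above. In FoxP1SkmKO mice at CT26, Atg2b was at 2.19 and 2.07 FPKM in control and 2.33 and 2.49 FPKM in KPC mice (log2 fold change 0.17, adjusted p = 0.590).

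Ambra1 was at 3.81 and 3.93 FPKM in WT control and 5.15 and 5.89 FPKM in WT KPC mice at CT26, a rise of 0.51 on the log2 scale (SE 0.10, adjusted p = 0.00227 by edgeR). The groups did not overlap, and the 2 control values were the lowest of the 48 mice. FoxP1SkmKO mice were at 5.97 and 5.52 FPKM (control) and 5.33 and 5.49 FPKM (KPC), with a log2 fold change of −0.09 (adjusted p = 0.833).

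Atg9a (chr1:75157504-75168840) was at 13.7 and 18.3 FPKM in WT control and 21.9 and 24.7 FPKM in WT KPC mice (0.54, SE 0.12, adjusted p = 0.0034 by edgeR). The 2 control mice differed from each other by more than the 2 KPC mice did. In FoxP1SkmKO mice the values were 21.4 and 20.8 FPKM (control) and 22.3 and 20.2 FPKM (KPC), a log2 fold change of 0.01.

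Ulk2 (chr11:61666475-61745899), which encodes a kinase that starts autophagy, was at 21.7 and 23.8 FPKM in WT control and 29.9 and 28.5 FPKM in WT KPC mice (0.35, SE 0.081, adjusted p = 0.00595 by edgeR). As for Atg2b and Ambra1, the control mice were the lowest 2 of the study. FoxP1SkmKO mice were at 27.9 and 27.3 FPKM (control) and 30.9 and 28.2 FPKM (KPC), a log2 fold change of 0.09 (adjusted p = 0.778).

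Gabarap (chr11:69881969-69885777), which encodes an ATG8 protein that acts late in autophagosome formation, was at 55.0 and 50.0 FPKM in WT control and 41.4 and 41.1 FPKM in WT KPC mice (−0.35, SE 0.078, adjusted p = 0.00397 by edgeR). The control mice were the highest 2 of all 48. FoxP1SkmKO mice lay between 41.5 and 42.2 FPKM in both conditions.

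Of the members the study names, Atg2a, the paralog of Atg2b, did not pass at CT26, with 5.02 and 5.71 FPKM in WT control and 6.37 and 7.05 FPKM in WT KPC mice (0.32, SE 0.10, adjusted p = 0.0520 by edgeR). Atg12 was at 4.47 and 3.69 FPKM in WT control and 4.00 and 3.60 FPKM in WT KPC mice, groups that overlapped (−0.11, adjusted p = 0.591). Bnip3 was at 34.8 and 33.6 FPKM and at 35.6 and 33.6 FPKM (0.01, adjusted p = 0.981). Of the remaining genes, Atg7, Map1lc3a, Gabarapl2, and Nbr1 had an unadjusted p under 0.05 at CT26 in WT mice, with adjusted p values of 0.138 to 0.230.

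The calls at CT26 in WT mice, other than that of Atg2b, depended on single libraries. Each fit that left out a CT26 library left 1 mouse in a group, so effect sizes are given here. Over these 4 fits, the log2 fold change of Atg2b ranged from 0.57 to 0.69. Without WT control CT26 replicate 1, the log2 fold change was 0.33 for Atg9a, 0.47 for Ambra1, 0.27 for Ulk2, and −0.30 for Gabarap. Without WT control CT26 replicate 2, that of Atg9a was 0.75. Ulk2 was at 0.30 without WT KPC CT26 replicate 1, and Ambra1 was at 0.38 and Atg9a at 0.42 without WT KPC CT26 replicate 2.

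**Figure D2:**
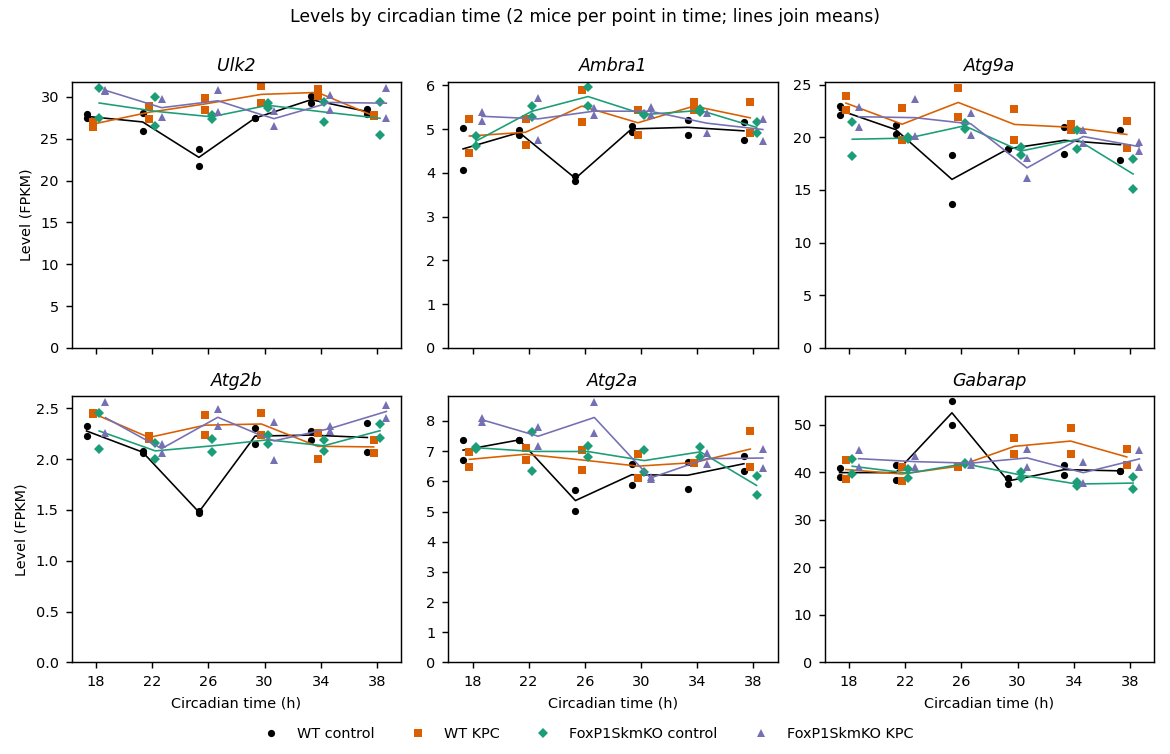
FPKM of members by circadian time, with a point for each mouse, in WT and FoxP1SkmKO mice with and without KPC tumors. At CT26 the 2 WT control mice were below the other groups for Atg2b (1.47 and 1.49 FPKM), Ambra1, and Ulk2, and above them for Gabarap (55.0 and 50.0 FPKM).

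The nearest to a call elsewhere was CT18 in FoxP1SkmKO mice. Map1lc3a was at 117 and 113 FPKM in control and 154 and 184 FPKM in KPC mice (0.56, SE 0.11, adjusted p = 0.0579 by edgeR), and Map1lc3b at 18.3 and 17.3 FPKM compared to 21.2 and 24.9 FPKM (0.38, SE 0.086, adjusted p = 0.0678). The groups did not overlap for either LC3 gene, and 2 members passed at CT18 without FoxP1SkmKO KPC CT18 replicate 1. In WT mice at CT18, Map1lc3a was at 136 and 118 FPKM in control and 119 and 144 FPKM in KPC mice, which overlapped.

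**Figure D3:**
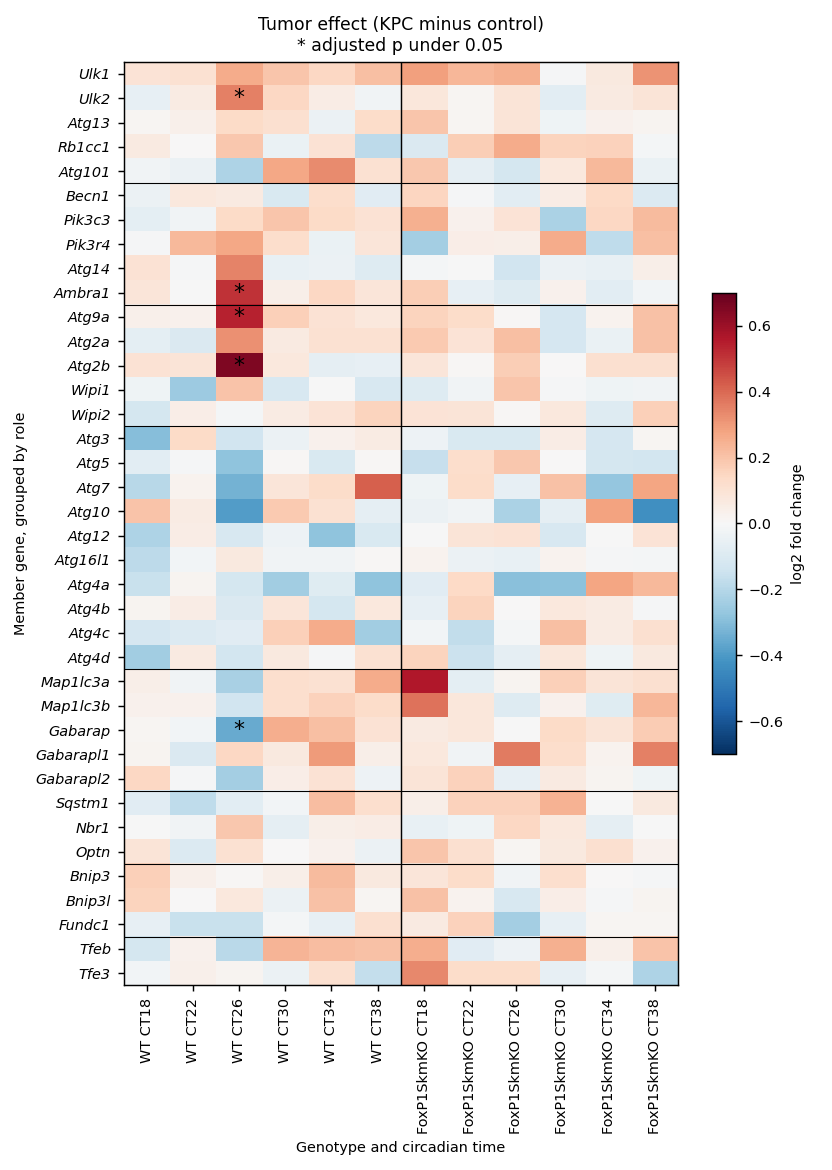
Tumor effect (KPC minus control, log2 fold change, color scale) of each of the 38 genes, in rows by role, at each of the 6 circadian times in WT and FoxP1SkmKO mice, in columns. Stars mark an adjusted p under 0.05 and stand only at CT26 in WT mice, at 5 genes.

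Whether the tumor effect at CT26 differed between genotypes was tested directly. No member passed at an adjusted p of 0.05 in edgeR, compared to 0.345% of all tested genes, and 6 members had an unadjusted p under 0.05 (11.0% of all). The difference (WT minus FoxP1SkmKO) was 0.60 for Ambra1 (adjusted p = 0.0554), 0.48 for Atg2b (0.105), 0.53 for Atg9a (0.154), −0.35 for Gabarap (0.164), and 0.26 for Ulk2 (0.373). At the 5 other times, 0 members passed, compared to 0.00256% of all tests there. Thus 5 genes were called in WT and 0 in FoxP1SkmKO mice at CT26, but the difference between the genotypes did not pass for any of them. Without WT control CT26 replicate 2, the difference of 1 member passed.

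The study names CT26 for autophagy genes, and the WT control mice of CT26 stood apart above. CT26 was therefore compared to the mean of CT22 and CT30 within each group. The choice of CT26 came from these same mice, so the p-values of this comparison do not test it independently. This comparison, the tumor effect at CT26, and the averaged effects above share the WT control CT26 mice. In WT control mice, 12 of 38 genes passed in edgeR, 5 higher at CT26 (6.41% of all tested genes were called higher) and 7 lower (8.65% were called lower). In WT KPC, FoxP1SkmKO control, and FoxP1SkmKO KPC mice, 0 members passed, compared to 0.0256% of all tests there, and 1, 2, and 4 members had an unadjusted p under 0.05, compared to 7.03%, 6.63%, and 10.2% of all tested genes.

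The genes that were higher at CT26 in WT control mice were 3 ATG8 genes, an ATG8 protease gene, and a ULK1 complex subunit. Gabarap was at 55.0 and 50.0 FPKM at CT26, compared to 41.5 and 38.2 FPKM at CT22 and 37.4 and 38.8 FPKM at CT30 (0.43, SE 0.066, adjusted p = 3.65e-05 by edgeR). Gabarapl2 was at 25.6 and 22.4 FPKM at CT26 and between 18.3 and 20.7 FPKM at CT22 and CT30 (0.30, adjusted p = 0.0181). Atg101, which encodes a partner of ATG13, was at 20.95 and 18.4 FPKM and at 12.9 to 16.6 FPKM at the neighboring times (0.38, adjusted p = 0.0057). Map1lc3a (0.27, adjusted p = 0.0469) and Atg4d (0.28, adjusted p = 0.0351) rose as well, but neither passed in any of the 6 fits that left out a library.

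The genes that were lower at CT26 were Ulk2 and Rb1cc1 of the ULK1 complex, Ambra1, the lipid transfer group genes Atg9a, Atg2a, and Atg2b, and the receptor gene Nbr1. Atg2b fell from 2.06 and 2.08 FPKM at CT22 to 1.47 and 1.49 FPKM at CT26, and stood at 2.30 and 2.15 FPKM at CT30 (−0.54, SE 0.084, adjusted p = 4.28e-05 by edgeR). Ambra1 (−0.36, adjusted p = 0.0072), Atg2a (−0.34, adjusted p = 0.00928), Nbr1 (−0.31, adjusted p = 0.00435), Atg9a (−0.31, adjusted p = 0.0374), Rb1cc1 (−0.30, adjusted p = 0.0304), and Ulk2 (−0.26, adjusted p = 0.0120) were lower as well. For Atg2b the CT26 mice were below all 4 mice of the neighboring times, as they were for Ambra1, Atg2a, Nbr1, Atg9a, and Ulk2, whereas for Rb1cc1 they overlapped with CT22 (3.46 and 3.39 FPKM at CT26, 3.31 and 3.70 FPKM at CT22). In WT KPC mice the same contrast was 0.03 for Atg2b, 0.13 for Ambra1, and −0.04 for Gabarap.

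Properties of these libraries moved with the result. The slope of log2 counts on log2 gene length was −0.094 and −0.066 in the WT control CT26 libraries, compared to −0.048 to 0.051 in the other 46. The median log2 fold change of CT26 against its neighbors in WT control mice was 0.18 for the shortest 25% of all tested genes and −0.22 for the longest 25%. Across the 38 members, this contrast and log2 gene length had a Pearson r of −0.53 (Spearman rho −0.43). For the tumor effect at CT26 in WT mice and log2 gene length, the r was 0.52 (rho 0.47). The members share libraries and are not independent. The members that were higher had gene lengths of 1181 to 2325 bases (Gabarap, Gabarapl2, Map1lc3a, Atg101) or 7264 bases (Atg4d), and those that were lower of 5762 to 14690 bases.

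Erythroid markers summed to 246 and 330 FPKM in the WT control CT26 libraries, compared to 81.7 to 223 FPKM at the other times of WT control mice and up to 306 FPKM in FoxP1SkmKO control mice, with 5 of 5 genes present. Endothelial markers summed to 86.0 and 96.5 FPKM, compared to 57.2 to 89.1 FPKM at the other times of WT control mice, with 6 of 6 present. At CT26 in the other groups, the endothelial sums were 83.6 and 87.7 FPKM (WT KPC), 83.5 and 95.6 FPKM (FoxP1SkmKO control), and 85.3 and 64.6 FPKM (FoxP1SkmKO KPC). Their part in the result was not tested. With the length trend of each library removed, which was chosen after seeing the data, 3 members passed in the tumor effect at CT26 in WT mice, Ambra1 (0.42, adjusted p = 0.0211), Atg9a (0.47, adjusted p = 0.0143), and Atg2b (0.39, adjusted p = 0.0165). Ulk2 (0.27, adjusted p = 0.0519) and Gabarap (−0.20, adjusted p = 0.163) did not. Of the 12 genes that differed at CT26 from the neighboring times in WT control mice, Atg4d and Gabarap passed with the trend removed, and 6 members passed in all, all higher.

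That comparison also rested on single libraries. Over the 6 fits that each left out a library, the log2 fold change ranged from −0.56 to −0.51 for Atg2b and from 0.37 to 0.50 for Gabarap. Without WT control CT26 replicate 1, the log2 fold change was −0.10 for Atg9a and −0.16 for Nbr1, and without WT control CT26 replicate 2 that of Atg9a was −0.52. Of the 6 fits, Atg2b and Gabarap passed in 6, Atg101, Ambra1, Atg2a, and Nbr1 in 5, Ulk2 and Gabarapl2 in 4, Rb1cc1 in 2, Atg9a in 1, and Atg4d and Map1lc3a in 0.

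**Figure D4:**
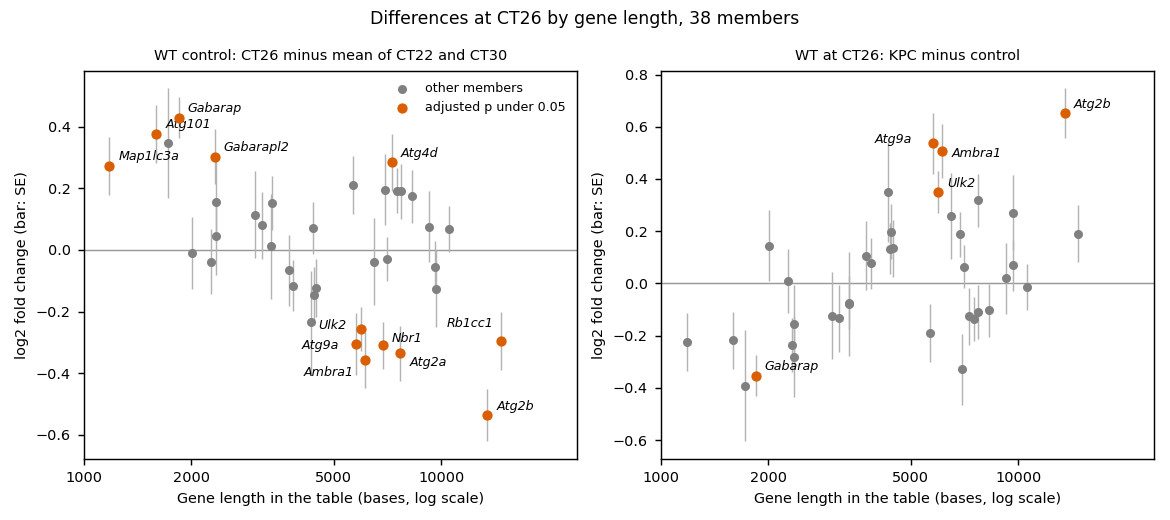
Log2 fold changes of the 38 genes (bars, SE) against gene length in bases on a log axis, for CT26 compared to CT22 and CT30 in WT control mice and for the tumor effect at CT26 in WT mice. Long genes such as Atg2b (13456 bases) lie low in the first comparison and high in the other, and short genes such as Gabarap (1844 bases) the reverse, with an r of −0.53 and 0.52.

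Rhythm was tested next, with a sinusoid of 24 h fitted to the FPKM of the 12 mice of each group and called at an unadjusted p under 0.01, the threshold of the study. In WT control mice, 2 of 38 genes were rhythmic (8.07% of tested genes), in WT KPC mice 6 (6.9% of tested genes), in FoxP1SkmKO control mice 4 (7.02%), and in FoxP1SkmKO KPC mice 2 (4.41%). At a Benjamini-Hochberg adjusted p of 0.05, no member was rhythmic in any group, with lowest adjusted p values of 0.0695, 0.0506, 0.0616, and 0.150 in F tests. This adjustment was over all genes with varying FPKM (27209 to 28711 by group), which include genes below the expression filter. Adjustment over the 15637 genes of the count tests alone was not run. The median relative amplitude of the 38 was 7.26%, 5.23%, 6.76%, and 5.91% of the basal level, compared to 11.9%, 10.3%, 10.4%, and 10.03% for tested genes.

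Rb1cc1 (chr1:6276421-6346872), which encodes FIP200, the scaffold of the ULK1 complex, was the only member called in all 4 groups. In WT control mice it was lowest at CT22 (3.31 and 3.70 FPKM) and CT26 (3.46 and 3.39 FPKM) and highest at CT30 (5.25 and 4.86 FPKM) and CT34 (mean, 5.05 FPKM), with a fitted amplitude of 0.95 FPKM (SE 0.15) and a peak at 34.8 h. In WT KPC mice the amplitude was 0.79 FPKM with a peak at 33.9 h, in FoxP1SkmKO control mice 0.68 FPKM at 35.5 h, and in FoxP1SkmKO KPC mice 0.68 FPKM at 33.0 h. The fitted peaks thus fell late in the subjective day in each group. Calls were made in 12 of 12 fits that left out a mouse in WT control, WT KPC, and FoxP1SkmKO control mice and in 3 of 12 in FoxP1SkmKO KPC mice, and without the CT26 mice the p was 0.0130 in FoxP1SkmKO control and 0.0191 in FoxP1SkmKO KPC mice by the F test.

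Bnip3l, which encodes the mitophagy receptor NIX, was called in both WT groups. It was at 11.6 and 12.1 FPKM at CT18 and 14.8 and 15.4 FPKM at CT30 in WT control mice, with an amplitude of 1.28 FPKM (SE 0.31) and a peak at 31.7 h, and in WT KPC mice the amplitude was 1.35 FPKM (SE 0.33) with a peak at 33.0 h. Bnip3l was not called in either FoxP1SkmKO group. Its amplitude was 1.31 FPKM (SE 0.46) in FoxP1SkmKO control mice, with a peak at 31.1 h. In FoxP1SkmKO KPC mice the amplitude was 0.82 FPKM (SE 0.26) with a peak at 33.1 h. Bnip3l lay near the threshold, with calls in 2 of 12 fits that left out a WT control mouse and 3 of 12 that left out a WT KPC mouse. Its relative Bnip3 had p values of 0.0155 to 0.0787 in the 4 groups, with peaks at 33.8 to 35.6 h.

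The other members called in WT KPC mice were Pik3c3, Ulk2, Atg16l1, and Gabarap. Pik3c3, which encodes the lipid kinase VPS34, rose from 3.94 and 3.73 FPKM at CT18 to 4.89 and 4.87 FPKM at CT34 (amplitude 0.54 FPKM, SE 0.078, peak at 33.6 h). Ulk2 was lowest at CT18 (26.4 and 27.0 FPKM) and highest at CT34 (30.2 and 30.9 FPKM), with an amplitude of 1.84 FPKM (SE 0.35) and a peak at 30.6 h. Both were called in 12 of 12 fits that left out a mouse. Atg16l1, which encodes a subunit of the complex that attaches ATG8 proteins to lipid, had an amplitude of 0.22 FPKM with a peak at 25.8 h, and Gabarap 3.55 FPKM at 33.1 h, with calls in 2 and 3 of 12 such fits. Without the CT26 mice, Atg16l1, Gabarap, and Bnip3l were not called in WT KPC mice. Pik3c3, Ulk2, Atg16l1, and Gabarap were not called in WT control mice. The WT control amplitudes of Ulk2 (2.41 FPKM, SE 0.67) and Gabarap (3.68 FPKM, SE 2.01) were nevertheless larger than those in WT KPC mice. The WT control amplitudes of Pik3c3 (0.33 FPKM, SE 0.13) and Atg16l1 (0.14 FPKM, SE 0.065) were smaller.

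In FoxP1SkmKO control mice, the other calls were Pik3c3 (amplitude 0.43 FPKM, peak at 31.3 h), Wipi2 (0.38 FPKM, 31.5 h), which encodes a protein that reads the lipid made by VPS34, and Gabarapl1 (2.68 FPKM, 31.7 h), an ATG8 gene. Gabarapl1 went from 13.5 and 12.4 FPKM at CT18 to 19.5 and 16.7 FPKM at CT34, and had amplitudes of 2.70 FPKM in WT KPC and 3.09 FPKM in FoxP1SkmKO KPC mice without a call. In FoxP1SkmKO KPC mice, Tfe3 was called, falling from 1.56 and 1.39 FPKM at CT22 to 1.09 and 1.08 FPKM at CT34 (amplitude 0.19 FPKM, SE 0.031, peak at 22.9 h). The count of calls fell to 1 in WT control mice without CT18, CT22, CT30, CT34, or CT38 replicate 1, to 3 in WT KPC mice without CT18 replicate 2, either CT22 mouse, or CT34 replicate 2, and to 1 in FoxP1SkmKO KPC mice without CT22 replicate 1, CT30 replicate 2, CT34 replicate 2, or either CT38 mouse.

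**Figure D5:**
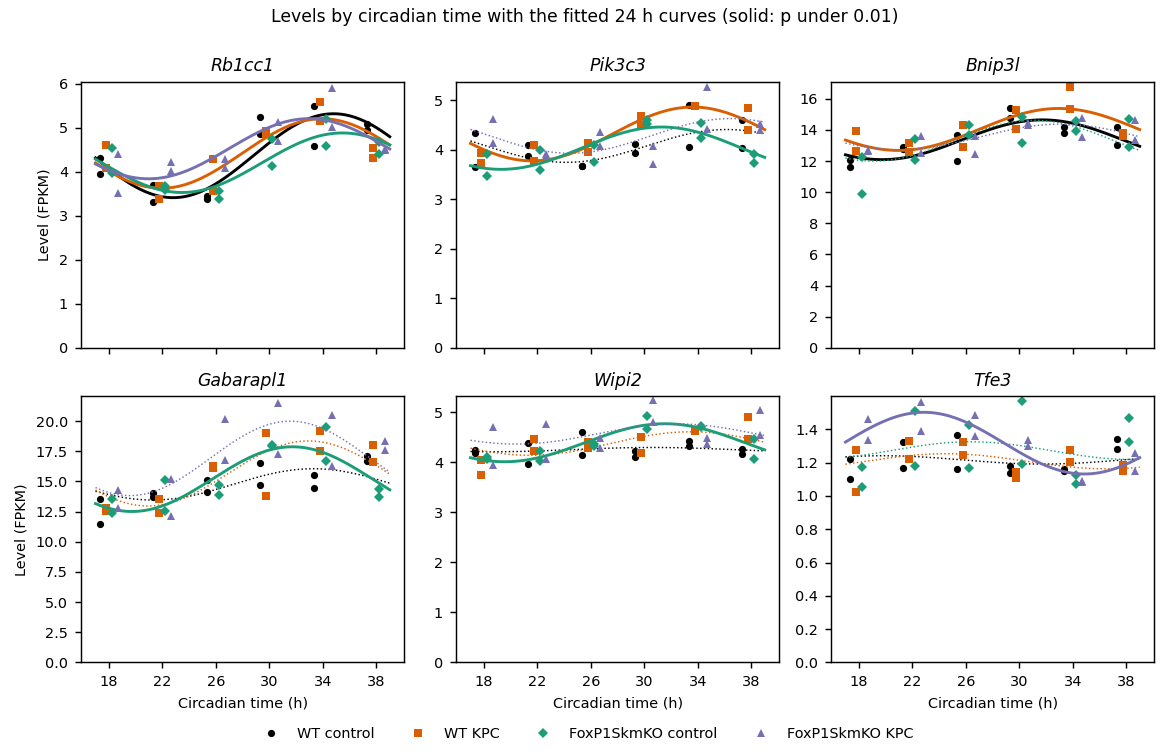
FPKM of members with a rhythm call, by circadian time, with a point for each mouse and the fitted 24 h sinusoids of the 4 groups. Rb1cc1 followed a similar course in the 4 groups, with fitted amplitudes of 0.68 to 0.95 FPKM and peaks at 33.0 to 35.5 h.

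A difference in rhythm was tested directly between groups. No member passed an adjusted p of 0.05 in the comparison of KPC and control mice within WT or within FoxP1SkmKO mice, or of the genotypes within control or within KPC mice, and no gene of the whole table did. At an unadjusted p under 0.05 were 4, 3, 4, and 4 members of 38, compared to 7.11%, 7.42%, 5.46%, and 4.75% of tested genes. The lowest were Ulk2 for the tumor in WT mice and for the genotype in KPC mice, Map1lc3b for the tumor in FoxP1SkmKO mice, and Wipi2 for the genotype in control mice, each with an adjusted p of 0.752 or more in F tests with 18 residual degrees of freedom. WT KPC mice had more rhythmic members than WT control mice, but for no gene did the difference in rhythm pass.

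Of the genes with an E-box in the promoter, Atg14, which encodes the subunit that directs VPS34 to autophagy, had F test p values of 0.0242 to 0.0414 in the 4 groups and peaks at 29.7 to 31.6 h, but was called in none. Bnip3 had F test p values of 0.0155 to 0.0787 and peaks at 33.8 to 35.6 h, and was called in none either. Atg3, Atg5, and Atg7 had p values above 0.08 in each group.

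For context, 39 further genes of the pathway were tested in the same fits. In the tumor effect averaged over the day in WT mice, 1 was higher and 1 lower, compared to 1.79% of all tested genes called. Depp1, a FoxO target of low abundance in these muscles, had a log2 fold change of 0.67 (SE 0.17, adjusted p = 0.0321 by edgeR) and of 0.35 in FoxP1SkmKO mice (adjusted p = 0.364). Trp53inp2, which encodes the autophagy scaffold DOR, fell by 0.13 on the log2 scale in WT mice (SE 0.035, adjusted p = 0.0406) and was at −0.09 in FoxP1SkmKO mice (adjusted p = 0.254). In FoxP1SkmKO mice 0 of 39 passed (0.428% of all tested genes). In the genotype effect of control mice 1 of 39 passed (3.44% of all), Rragd (−0.15, adjusted p = 0.0230 by edgeR), which encodes a GTPase that links TFEB to mTORC1, and in that of KPC mice 0 (0.32% of all). At CT26 in WT mice, the fusion genes Epg5 (0.58, adjusted p = 0.00254) and Stx17 (0.38, adjusted p = 0.0258) were higher in KPC mice, 2 of 39 genes, compared to 4.64% of all tested genes called higher. Both were lower at CT26 than at the neighboring times in WT control mice (−0.42 and −0.38), as was Fnip1 (−0.55), while Fkbp8 (0.35) and Wdr45 (0.45) were higher. These were 3 lower and 2 higher of 39, compared to 8.65% and 6.41% of all tested genes.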

How the data were processed

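RNA from 48 tibialis anterior muscles was sequenced after poly-T selection of mRNA. The authors deposited gene counts and FPKM values, with comparison tables for pairs of groups. The submitters' processing notes name HISAT2 2.0.5, DESeq2 1.20.0, and mm39, whereas the study's methods name another aligner, so the aligner is not settled here. Whether counting used strand is not settled either, so overlapping and antisense genes cannot be told apart. The raw counts as deposited were used. Where a gene was absent from a count table, its counts were recovered from FPKM and gene length. The authors' fold changes and p-values were not used, nor were 96 further per-sample columns (48 of normalized counts, 48 of repeated FPKM).

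Counts were fitted with edgeR 4.0.16 (R 4.3.3) by the quasi-likelihood method, with TMM factors, over all 48 libraries and 24 groups, for 15637 genes that passed the expression filter. Contrasts were the tumor effect in each genotype, the genotype effect in each condition, and their differences, averaged over 6 times or at each time, and CT26 against CT22 and CT30. P-values of the count tests were adjusted by Benjamini-Hochberg over these 15637 genes, at 0.05. Those of the rhythm and rhythm difference tests were adjusted over all genes with varying FPKM (27209 to 28711 for rhythm, by group). A 24 h cosine was fitted by least squares to FPKM in each group of 12 mice (numpy 2.4.6, scipy 1.17.1), with the call at p under 0.01 as in the study. Both steps were tested on simulated data. Samples of a group are separate mice, and n = 2 per time limits the precision of single times. Replicates differed by more than sampling noise.

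Values are given in full for members with an adjusted p under 0.05 in an averaged effect or at any time, or a rhythm call, and for Ulk2, Ambra1, Gabarap, Atg12, Atg2a, and Bnip3. The members and lists were chosen with earlier results of these data known. Alternatives were other size factors, no filter, DESeq2 1.42.0, 4 libraries alone, times or mice left out, an additive model, CPM, a replicate block, and removal of the length trend, the last chosen after seeing the data.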

Additional observations from a re-analysis of the deposited data

How the results depend on the processing

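The number of members past the threshold was recomputed under each alternative. In the tumor effect averaged over the day in WT mice (0 members, 280 genes in all), 2 members passed with no filter on low counts (794 genes). With CT22, CT34, or CT38 left out, 1 passed (232, 157, and 226 genes), and with DESeq2 1 passed (357 genes). In FoxP1SkmKO mice (67 genes in all), 2 passed with no filter (527 genes). In the genotype effect of control mice (3 members, 538 genes), 1 passed with no filter (933 genes). With CT26 or CT38 left out, 1 passed (379 and 268 genes), and with an additive model of time 1 passed (387 genes). In KPC mice (50 genes), DESeq2 called 116 genes and the fit with no filter 470. At CT26 in WT mice (5 members, 1121 genes), 1 passed in edgeR on the 4 libraries alone (345 genes) and 3 with the length trend removed (406 genes). At CT18 in FoxP1SkmKO mice, 2 passed with no filter (596 of 33218 genes in all). With DESeq2, 2 passed on 48 libraries (53 of 8967 genes) and 1 on 4 (97 of 10908 genes). The difference between genotypes had 1 member at CT18 with no filter (274 genes) and 1 at CT26 with DESeq2 (140 genes, compared to 54). CT26 against its neighbors in WT control mice gave 6 members with the length trend removed (1039 genes, compared to 2356). Rhythm in WT control mice gave 1 member on CPM (1271 genes). A Benjamini-Hochberg threshold gave 0 members in each group, with 150 genes in WT control, 130 in WT KPC, 119 in FoxP1SkmKO control, and 33 in FoxP1SkmKO KPC mice. The cause was not tested.

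Leaving out a mouse in turn gave 0 to 3 members in the averaged tumor effect of WT mice, 1 to 3 in the genotype effect of control mice, 1 to 7 at CT26 in WT mice, 0 to 2 at CT18 and 0 to 1 at CT38 in FoxP1SkmKO mice, 0 to 1 in the difference at CT26, and 2 to 10 in CT26 against its neighbors. For rhythm the ranges were 1 to 2, 3 to 6, 3 to 5, and 1 to 3 members. Counts over all tested genes in these fits are not given here, so no range sets the members apart from other genes. The sign turned for values near 0: Gabarap in WT mice without CT30 (−0.0085), Ambra1 in FoxP1SkmKO mice without CT22 (0.0035), CT26 (0.011), or CT34 (0.0077) and from −0.031 to 0.011 without single mice, and Rb1cc1 at CT26 against its neighbors with the length trend removed (0.040).

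Replicate numbers are shared by the groups but do not pair the mice by the labels. Deviations of same-numbered KPC and control mice of a time correlated at −0.101 to 0.0854, and 0 of 12 exceeded 0.1. With the replicate block, rhythm in FoxP1SkmKO KPC mice gave 1 member (707 genes in all), Map1lc3a was lost from CT26 against its neighbors, and Atg16l1 and Bnip3l from WT KPC rhythm. CT26 in WT mice had 1103 genes called with the block.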

Other observations

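Of the 39 further genes of the pathway, 6 were called rhythmic in WT control mice (8.07% of tested genes), 3 in WT KPC mice (6.9%), 4 in FoxP1SkmKO control mice (7.02%), and 4 in FoxP1SkmKO KPC mice (4.41%). Among them, Tax1bp1, Rubcn, and Fnip1 were each called rhythmic in 3 of the 4 groups at an F test p under 0.01. Tax1bp1, which encodes a cargo receptor, was called in WT control, WT KPC, and FoxP1SkmKO control mice, with amplitudes of 0.62, 0.51, and 0.46 FPKM and peaks at 36.3, 36.1, and 35.9 h. Rubcn, which encodes Rubicon, a negative regulator of autophagy, was called in WT KPC, FoxP1SkmKO control, and FoxP1SkmKO KPC mice, with amplitudes of 0.97, 1.06, and 0.79 FPKM and peaks at 24.8, 21.8, and 24.2 h. Fnip1, which encodes a partner of folliculin, was called in WT control, FoxP1SkmKO control, and FoxP1SkmKO KPC mice, with amplitudes of 2.60, 2.05, and 2.18 FPKM and peaks at 33.1, 32.5, and 30.6 h. For no gene of the whole table did rhythm differ between groups at an adjusted p of 0.05 in the F test.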
